A study of Mus musculus with 6 samples.

Results

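Fgfr3 (ENSMUSG00000054252), which encodes fibroblast growth factor (FGF) receptor 3, was followed in mouse livers after ischemia-reperfusion injury. It was taken by its symbol as 1 of the 3201 genes in the deposited expression table. The study removed Fgf18, which encodes a secreted FGF, from hepatic stellate cells and compared the injured livers with injured livers that kept the gene. There were 6 liver libraries from male mice on a C57BL/6 background, 3 in each group, and all 6 livers had undergone partial warm ischemia of 70% of the liver for 1 h and reperfusion for 6 h. The first group, labelled IR, is taken to be the Fgf18 f/f group, with an unrecombined floxed allele. The label does not say so, but the paper's RNA sequencing set Fgf18 f/f livers against Fgf18 △HSC livers. The livers of this first group are called control livers here. The second group, labelled FGF18 KNOCKOUT, is the Fgf18 △HSC group, in which Cre driven by the GFAP promoter recombines the floxed allele in hepatic stellate cells, and its livers are called △HSC livers. GFAP promoters are also active in other cells, including glia and, in some Cre lines, cholangiocytes. No uninjured liver was among these samples, so every difference below is between genotypes after injury. Ages were not given in the sources used here.

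FGF receptors are single-pass receptor tyrosine kinases with immunoglobulin-like domains outside the cell, and an FGF bound together with heparan sulfate brings a pair of receptors together so that their kinase domains phosphorylate each other. FRS2 and other adaptors then pass the signal to the RAS-ERK and PI3K-AKT pathways, while SPRY, SPRED and DUSP proteins limit it. FGFR3 is best known for restraining growth of cartilage in the growth plate, is a high-affinity receptor of FGF18 in its IIIc splice form, and in liver is less studied than FGFR4, the hepatocyte receptor that acts with β-Klotho on bile acid synthesis.

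In △HSC livers Fgfr3 stood at 38.5% of its level in control livers. The other listed receptor gene, Fgfrl1, stood at 36.5%. The 14 other listed receptor tyrosine kinase genes all had fold changes in the opposite direction. Of them 5 rose past the threshold, or 1 after the rescaling described below, where 11.0% of all listed genes did. Several of the 14 rested on few reads, such as Ror2 (0, 0 and 0 in control livers) and Ephb3 (3, 2 and 1). The limma adjusted p was 0.06 for Ntrk2, 0.158 for Ntrk3 and 0.0593 for Ros1. Positive fold changes were the commoner kind, in 2083 of the 3201 listed genes, and 41.6% of all listed genes rose past the same threshold. Fgfr1, Fgfr2, Fgfr4 and Fgf18 had no row among the 3201 genes and were not analysed here, so the deletion of Fgf18 was not checked on its own transcript.

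Fgfr3 lies on the plus strand of chromosome 5 in GRCm38, at chr5:33721674-33737068, a span of 15395 bases. GENCODE release M21 gives it 17 transcripts, 13 of them protein coding and 4 with a retained intron. Their exons join to 7158 bases, the length over which its reads were scaled, so the IIIb and IIIc splice forms were measured as 1 value. The 200 bases just upstream of the annotated start are shown because a second listed gene, G630022F23Rik, is annotated across them on the other strand and its level is given below. They are the plus strand of chr5:33721474-33721673 from RefSeq, GRCm38.p6, taken from the first of its 2 start windows for the gene, and the capitals mark matches to the GC box, the letters GGGCGG on either strand:

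Fgfr3 upstream: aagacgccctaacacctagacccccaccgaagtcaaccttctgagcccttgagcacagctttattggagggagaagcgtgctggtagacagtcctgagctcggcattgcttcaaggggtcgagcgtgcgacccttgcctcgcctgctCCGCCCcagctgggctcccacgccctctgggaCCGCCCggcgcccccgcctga

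Both capital runs read GGGCGG on the minus strand. The 300-base window from 250 bases before to 50 bases after the RefSeq start held 4 such matches, a GC content of 69.7% and 26 CpG dinucleotides. The median over 32851 mouse windows of the same length was 52.7% GC and 7 CpG dinucleotides, and 35.7% of windows held a GC box. The window had no match to the letters CACGTG, an E-box, which 7.15% of windows held.

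The unit of the table is TPM, that is, reads per length of gene scaled to the same total in each library. The listed genes made up 7.14% to 7.93% of all TPM in control livers and 3.89% to 3.99% in △HSC livers. All 3201 rows had passed a selection in the authors' own comparison of these livers, with an absolute log2 fold change of at least 1 and an unadjusted p under 0.05. A test of any row on the same livers is therefore not independent of how the row came to be listed. In the present fit 71.7% of rows passed the threshold, 30.0% lower and 41.6% higher in △HSC livers. The threshold was a Benjamini-Hochberg adjusted p under 0.05 from limma together with an absolute log2 fold change above 1, on log2(TPM + 0.1). This scale understates the change of low genes.

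The Fgfr3 level was 6.25, 5.98 and 5.51 TPM in the control livers. It was 2.78, 1.58 and 2.46 TPM in the △HSC livers. The groups did not overlap, since the highest △HSC liver, replicate 1, was well below the lowest control liver, replicate 3. Rows were listed for a difference between these same livers, so lack of overlap, here and below, is no separate evidence of one. How many of all listed genes lacked overlap was not counted. The means were 5.91 ± 0.377 TPM (SD, n = 3) and 2.28 ± 0.622 TPM (SD, n = 3), a difference of -3.64 TPM. The log2 fold change was -1.37 with a standard error of 0.21, a 95% interval of -1.86 to -0.89 and a limma adjusted p of 0.000493. Fgfr3 thus fell in △HSC livers by more than the spread between livers. The two-sided exact permutation test gave p = 0.1, the smallest value that 3 livers against 3 allow.

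The values recover whole reads for Fgfr3. They correspond to 1198, 954 and 710 reads in the control livers, and to 413, 173 and 349 reads in the △HSC livers. The counting error was 2.89% to 3.75% of the value in control livers and 4.92% to 7.60% in △HSC livers. The livers themselves varied more, with a coefficient of variation of 6.38% in control and 27.3% in △HSC. Most of the latter came from replicate 2, whose exact 95% Poisson interval of 1.35 to 1.84 TPM lay below those of replicate 1, 2.52 to 3.06 TPM, and replicate 3, 2.21 to 2.74 TPM. Such intervals cover counting error only. Without that liver the log2 fold change was -1.14, with a limma adjusted p of 0.000378.

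**Figure D1:**
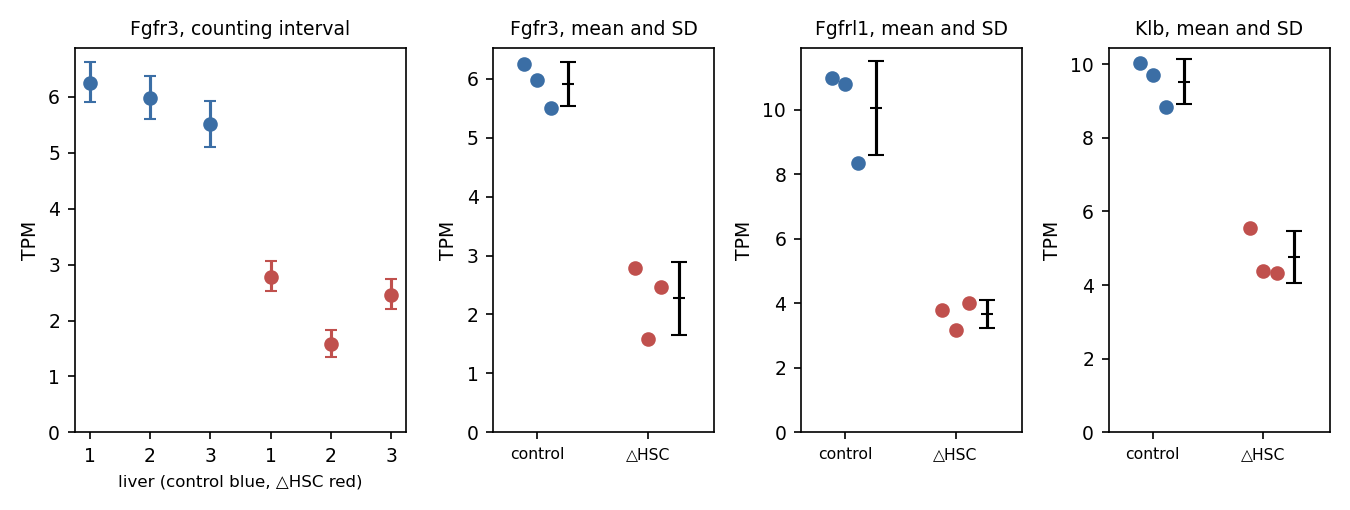
TPM of Fgfr3 in each liver with its 95% Poisson counting interval (left), then TPM of Fgfr3, Fgfrl1 and Klb in each liver (points) with mean and SD (bars, n = 3), control in blue and △HSC in red. For all 3 genes every △HSC liver lies below every control liver, and for Fgfr3 replicate 2 is the lowest at 1.58 TPM.

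Among the 1118 listed genes with a negative fold change, 430 were more negative than Fgfr3, or 38.5%, and their median log2 fold change was -1.26. Its fall was therefore of ordinary size among the listed genes that went down. Fgfr3 was nonetheless one of the more abundant listed genes, with a mean TPM above that of 79.7% of them in control livers and of 69.7% in △HSC livers. The median log2 fold change over all listed genes was 0.88. Rescaling each liver by the median ratio of the listed genes moved that median to 0.30, a change of -0.57, after which 34.8% of listed genes passed as lower and 11.0% as higher. Fgfr3 then had a log2 fold change of -2.24 with a limma adjusted p of 6.3e-06. Because the rescaling shifted log2 fold changes by a median of -0.74, it tested higher calls rather than lower ones. Relative to the median of the listed genes Fgfr3 stood at -2.25 as deposited and -2.54 after rescaling. That median was positive by either scaling, so any listed gene with a negative fold change lies below it. The comparison is therefore no separate support for the fall. Across the 13 processing alternatives the log2 fold change ran from -2.24 to -1.09, always past the threshold.

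**Figure D2:**
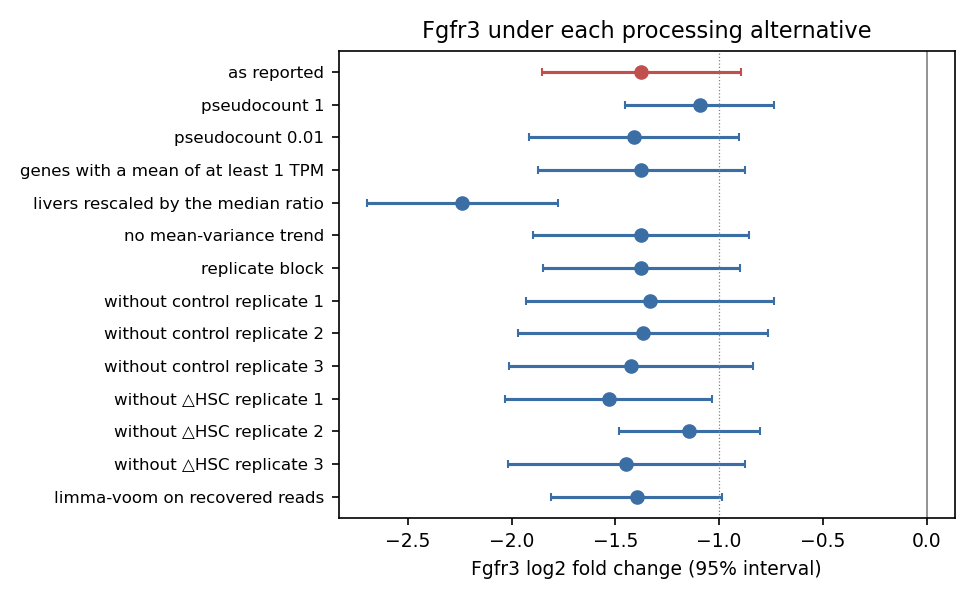
Log2 fold change of Fgfr3 (△HSC against control) with its 95% interval as reported (red) and under each of the 13 alternatives (blue); dotted line, the fold limit. The points range from -2.24 after rescaling to -1.09 with a pseudocount of 1, and no interval reaches 0.

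Fgfrl1 encodes an FGF receptor that lacks the intracellular kinase domain. Its level was 10.98, 10.79 and 8.36 TPM in control livers and 3.79, 3.18 and 4.01 TPM in △HSC livers. These groups did not overlap either. The log2 fold change was -1.43 with a standard error of 0.16 and a limma adjusted p of 0.000108. The ratio of Fgfr3 to Fgfrl1, computed after these values had been seen, was 0.569, 0.554 and 0.659 in control livers and 0.733, 0.498 and 0.614 in △HSC livers. The ratios overlapped (two-sided exact permutation p = 0.8), so the 2 receptor genes differed by genotype to an extent that could not be told apart with 3 livers a group.

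Klb encodes β-Klotho, the co-receptor through which FGF15 and FGF21 act on FGFR4 and FGFR1. It was at 10.03, 9.72 and 8.84 TPM in control livers and 5.56, 4.39 and 4.32 TPM in △HSC livers, again without overlap. Its log2 fold change of -0.99 (SE 0.14, limma adjusted p = 0.000356) missed the fold limit and not the limit on p. It passed both after the rescaling (-1.86), with a pseudocount of 0.01 (-1.01), by limma-voom on the recovered reads (-1.01), without control replicate 3 (-1.05) and without △HSC replicate 1 (-1.11). The ratio of Fgfr3 to Klb, also computed after the values were seen, was 0.624, 0.616 and 0.623 in control livers and 0.4999, 0.360 and 0.570 in △HSC livers. All 3 △HSC ratios lay below the control ratios (exact permutation p = 0.1, the smallest possible), so Fgfr3 was lower relative to Klb in each of them.

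Of the 22 FGF ligand genes looked for, Fgf11, an intracellular FGF homologous factor that does not act through receptors, was the only one listed. It is named after its values were seen. It rested on 3, 1 and 3 reads in control livers and 15, 8 and 6 reads in △HSC livers. At a log2 fold change of 0.97 it did not pass the threshold. It passed with a pseudocount of 0.01 (2.01), by limma-voom on the recovered reads (2.13), without control replicate 3 (1.07) and without △HSC replicate 3 (1.17). Secreted FGFs were therefore not analysed here.

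The FGF signaling lists together held 187 genes, of which 35 were listed. Of these, 13 fell and 13 rose, against 30.0% and 41.6% of all listed genes, and their median log2 fold change was 0.92 beside 0.88 over all listed genes. After the rescaling none of the 35 changed direction, while 15 passed as lower and 2 as higher, against 34.8% and 11.0% of all listed genes under that scaling. Fgfr3 and Fgfrl1 are 2 of the 13 that fell.

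Among adaptors and effectors, 6 of 50 genes were listed, and 1 fell and 2 rose, where 30.0% of all listed genes fell and 41.6% rose. After the rescaling 2 passed as lower and none as higher, against 34.8% and 11.0% of all listed genes. Pik3r1, the regulatory subunit of PI3-kinase, fell from 14.0, 12.9 and 11.98 TPM to 5.74, 3.77 and 4.54 TPM, with a log2 fold change of -1.47 (SE 0.17, limma adjusted p = 0.000126). As with Fgfr3, its lowest △HSC liver was replicate 2. That liver had the lowest median ratio of all listed genes among △HSC livers (1.06, against 1.20 and 1.31), so this is not particular to the 2 genes. Stat5a, a transcription factor phosphorylated downstream of growth factor and cytokine receptors, had means of 4.08 and 2.01 TPM and missed the fold limit at -0.98, which it passed after the rescaling at -1.84 and narrowly, at -1.05 to -1.01, under 4 other alternatives.

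Among feedback inhibitors, 4 of 22 genes were listed, and 1 fell and 3 rose, where 30.0% of all listed genes fell and 41.6% rose. None of the 3 passed after the rescaling, where 11.0% of all listed genes passed as higher. Dusp2, a nuclear phosphatase of MAP kinases, had a mean of 2.38 ± 0.507 TPM in control livers and 0.729 ± 0.253 TPM in △HSC livers (SD, n = 3), a log2 fold change of -1.61. Dusp4 and Dusp5, also MAP kinase phosphatases, moved the other way. Their log2 fold changes were 1.08 for Dusp4, at 2.24 against 4.84 TPM, and 1.48 for Dusp5, at 3.25 against 9.11 TPM. After the rescaling Dusp4 stood at 0.22, Dusp5 at 0.62 and Spred3, the third of the risen genes, at 0.50. Spred3, with means of 0.167 and 0.501 TPM, is outside the rule for naming genes and was added with its values known. With a pseudocount of 1 Dusp2, at -0.97, Dusp4, at 0.85, and Spred3, at 0.36, lost their calls. Spred3 also lost its call without △HSC replicate 3, at 0.96.

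Among genes that ERK signaling can induce, 11 of 30 were listed, and 5 fell and 4 rose. Fosb, an AP-1 subunit, fell from 12.61, 10.68 and 6.05 TPM to 1.68, 0.797 and 1.51 TPM, a log2 fold change of -2.78. Myc, a transcription factor for growth genes, fell from a mean of 37.0 to 15.9 TPM (log2 fold change -1.25). Fosl1, another AP-1 subunit, rose from 2.47, 2.60 and 2.54 TPM to 11.95, 11.85 and 16.55 TPM, a log2 fold change of 2.34. Listed genes as a whole also went both ways, 30.0% lower and 41.6% higher.

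For the other members, log2 fold changes were -1.02 for Jund, -1.01 for Phlda1 and -1.05 for Phlda2 among those that fell, and 1.10 for Jun, 1.53 for Egr2 and 1.15 for Etv5 among those that rose. Klf4, at 0.94, did not pass. It passed without control replicate 1 (1.12), without △HSC replicate 2 (1.20) and, narrowly, with a pseudocount of 0.01 (1.003) and by limma-voom (1.01). Leaving out 1 liver took Jund to -0.91 (without control replicate 1) and -0.93 (without △HSC replicate 2), and Phlda1 to -0.98 and -0.82 without the same livers. It took Phlda2 to -0.78 without control replicate 2 and to -0.94 without △HSC replicate 3. Without △HSC replicate 1 or 3, Jun was at 0.97 and 0.95. After the rescaling Jun, Egr2 and Etv5 stood at 0.22, 0.75 and 0.36, short of the limit. With a pseudocount of 1, Egr2 (0.83), Etv5 (0.62), Phlda1 (-0.996) and Phlda2 (-0.65) were short of it as well.

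**Figure D3:**
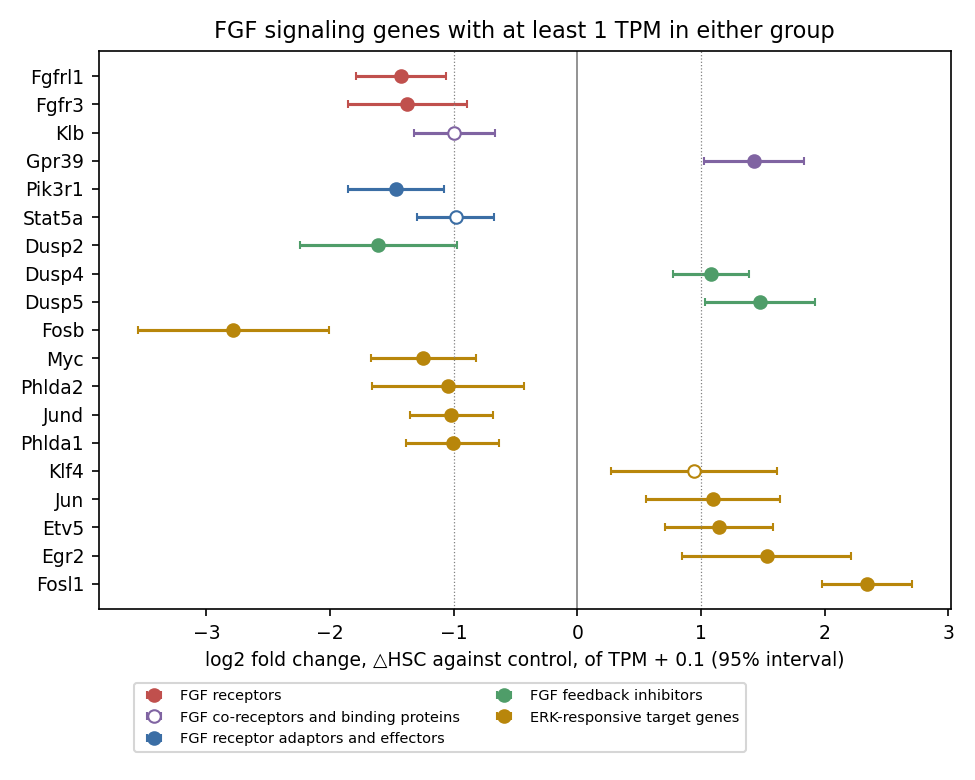
Log2 fold change on TPM + 0.1 (△HSC against control) with its 95% interval for listed FGF signaling genes whose mean reached 1 TPM in 1 or both groups, coloured by list; filled points passed the threshold and dotted lines mark the fold limit. Fgfr3 (-1.37) and Fgfrl1 (-1.43) sit together below -1, while the ERK-responsive genes run from -2.78 for Fosb to 2.34 for Fosl1.

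The remaining lists were read by counts, and the genes named from them were picked after their values were seen. Of 11 co-receptor and binding protein genes 3 were listed and 1 rose. This was Gpr39 (2.36 against 6.43 TPM), a zinc-sensing receptor that the list held although it is not an FGF co-receptor, and after the rescaling it stood at 0.57. Of 37 heparan sulfate proteoglycan genes 4 were listed, 1 lower and 2 higher, and after the rescaling neither of the higher calls held. Sdc4, a cell-surface proteoglycan, fell from 420.2 to 160.4 TPM, a log2 fold change of -1.38 that is close to that of Fgfr3. Of 13 genes of the FGF15-FGFR4 bile acid axis 5 were listed, 3 lower and 1 higher, where 30.0% and 41.6% of all listed genes were. One of the 3, the bile acid transporter subunit gene Slc51b, lost its call under 7 alternatives, with log2 fold changes of -1.41 to -0.65 there. Cyp7a1, the rate-limiting enzyme of bile acid synthesis, fell from 14.8 to 5.26 TPM, and Nr0b2, which encodes its repressor SHP, rose from 1.74 to 12.9 TPM.

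Fgfr3 was set beside the 14 of 54 other receptor tyrosine kinase genes that were listed. It had the highest mean TPM of the 15 in control livers and the second highest in △HSC livers, where Axl, the GAS6 receptor, had 2.43 ± 0.546 TPM (SD, n = 3). The levels of Fgfr3 (1.58 to 2.78 TPM), Axl (2.03 to 3.05 TPM) and Pdgfrb (1.66 to 2.19 TPM) overlapped in △HSC livers, so their order there is not beyond the spread between livers. In control livers Fgfr3 stood clear of the next of the 15, Axl, at 0.874 to 1.26 TPM. The 40 unlisted genes of the 54, and Fgfr4, had no row, so these ranks are not ranks among all receptor tyrosine kinases of the liver.

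Of those 14 genes 5 rose and none fell past the threshold, a share of risen genes below the 41.6% over all listed genes. They were the platelet-derived growth factor receptors Pdgfrb (log2 fold change 1.89) and Pdgfra (1.38), the angiopoietin receptor Tek (1.31), Axl (1.13) and the VEGF receptor Flt1 (1.07). Pdgfra, Axl and Flt1 are outside the rule for naming genes and were added with their values known. Without △HSC replicate 3 Axl stood at 0.96 and Flt1 at 0.92, and 3 of the 14 genes then passed. After the rescaling all 14 stayed positive, at 0.07 to 1.12, and 1 passed, Pdgfrb, where 11.0% of all listed genes passed as higher. Fgfr3 kept its call in both cases, though the rescaling made its fold change more negative and so was no test of a lower call.

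**Figure D4:**
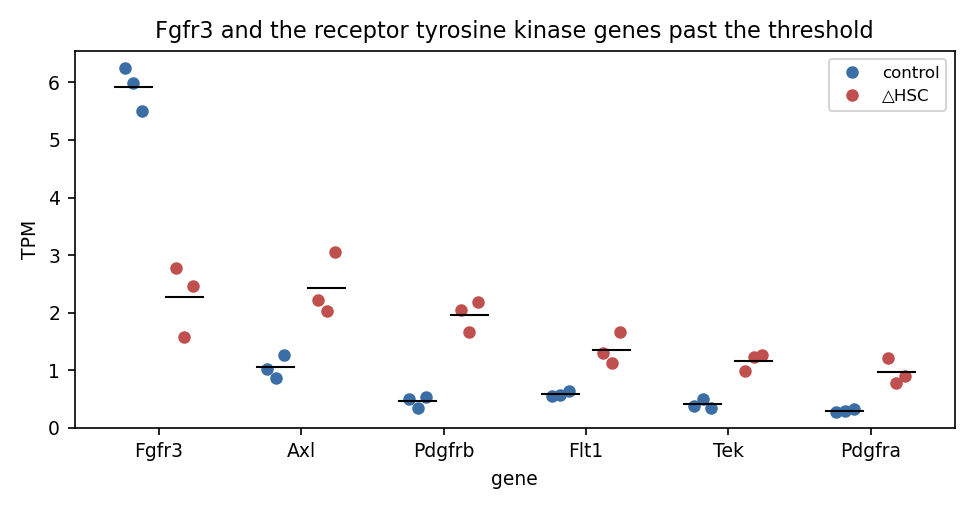
TPM in each liver (points) and group mean (lines, n = 3) for Fgfr3 and the 5 other receptor tyrosine kinase genes that passed the threshold, control in blue and △HSC in red. Fgfr3 drops from a mean of 5.91 to 2.28 TPM while each of the others is higher in △HSC livers.

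Of 48 ligand genes for these other kinases 13 were listed, and 9 rose and 2 fell, against 41.6% and 30.0% of all listed genes. After the rescaling 3 passed as higher and 3 as lower, against 11.0% and 34.8% of all listed genes. The EGF receptor ligands Btc and Ereg had log2 fold changes of 2.25 and 1.83, and Angpt2, a ligand of TEK, had 2.09. With a pseudocount of 1 Ereg stood at 0.86 and lost its call. Vegfa, the endothelial growth factor, fell from 48.5, 43.6 and 48.0 TPM to 23.6, 20.8 and 23.3 TPM, a log2 fold change of -1.05 that came to -0.99 without △HSC replicate 2.

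Around Fgfr3, 37 other annotated genes start within 500 kb, 18 of them protein coding. G630022F23Rik, an unclassified transcript to be experimentally verified, was the only one listed. It lies on the minus strand at chr5:33720043-33723669, and its span covers the upstream sequence shown above and shares 1996 bases with that of Fgfr3. It had 0.649, 0.495 and 0.306 TPM in control livers and 0.346, 0.0541 and 0.139 TPM in △HSC livers, from 63, 40 and 20 reads and from 26, 3 and 10 reads. The groups overlapped, unlike those of Fgfr3. Its log2 fold change of -1.15 (SE 0.41, limma adjusted p = 0.0232) lost the threshold with a pseudocount of 1 (-0.33), without control replicate 1 (-0.95) or 2 (-1.12), and without △HSC replicate 2 (-0.79) or 3 (-1.11). The library kit keeps strand, but the strand setting of the counting was not given in the sources used here, so reads of this gene and of Fgfr3 may not be fully separate where they overlap. Its reads numbered 63 or fewer in each liver, against 173 or more for Fgfr3.

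The 5 listed genes whose profile over the 6 livers was nearest to that of Fgfr3 were found by the root mean square difference of log2(TPM + 0.1) after centring each gene, over 3200 genes. They were AC171003.1 (0.0646), Vwce (0.0671), Me1 (0.0814), Rnd3 (0.0887) and Wee1 (0.0919), where the median gene was at 1.17. Of these AC171003.1 is a transcript with 12 reads or fewer in any liver. Vwce, a secreted von Willebrand factor C domain protein, had 8.39, 8.55 and 8.05 TPM in control livers and 4.08, 2.11 and 3.24 TPM in △HSC livers. Me1, the cytosolic malic enzyme that supplies NADPH, had means of 157.7 and 62.1 TPM. Rnd3 had means of 38.8 and 16.6 TPM, and Wee1, a kinase that holds back mitotic entry, 9.91 and 3.63 TPM. All 5 shared with Fgfr3 their lowest value in △HSC replicate 2, a likeness that picking by profile favours. That liver also had the lowest median ratio of the listed genes among △HSC livers, 1.06 against 1.20 in replicate 1 and 1.31 in replicate 3. The likeness describes these 6 livers only.

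**Figure D5:**
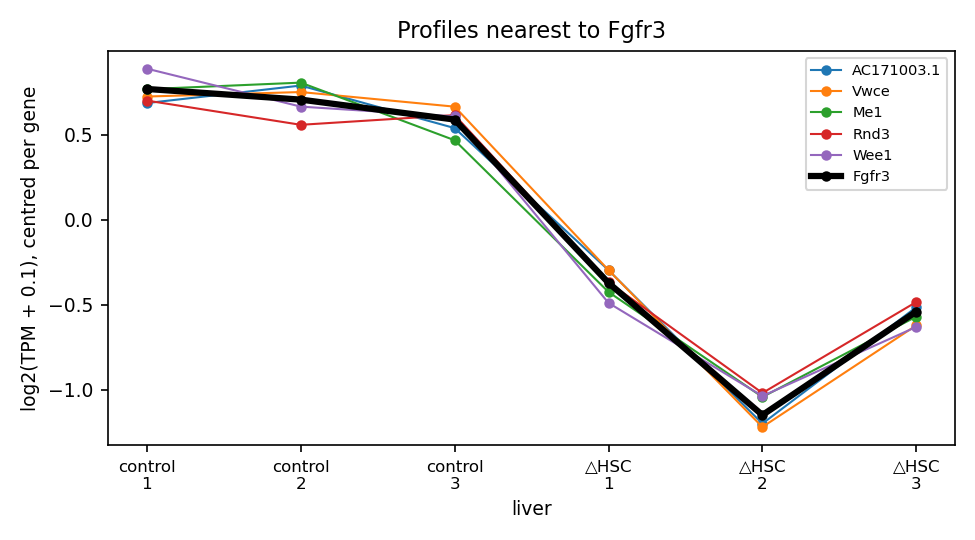
Log2(TPM + 0.1), centred on each gene's own mean, in each liver for Fgfr3 (thick black line) and the 5 listed genes nearest to it. All 6 lines drop from the control to the △HSC livers and are lowest in △HSC replicate 2; the lines join separate livers and imply no order.

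Listed markers of liver cell types differed between the groups in these bulk samples. They were lower for hepatocytes, as for Fgfr3, and mostly higher for stellate and endothelial cells. In bulk, fewer cells of a type and less RNA per cell cannot be told apart. Of 20 general hepatocyte markers 2 were listed, and both fell, where 30.0% of all listed genes fell and 41.6% rose. All 7 listed of 25 pericentral and all 8 listed of 22 periportal hepatocyte markers fell, with medians of -1.44 and -1.42 on the log2 scale. Their summed levels were 3249 to 3513 TPM against 992.1 to 1351 TPM for the pericentral markers, and 3236 to 3985 TPM against 735.2 to 940.02 TPM for the periportal markers. Of 29 hepatic stellate cell markers 14 were listed and 12 rose, the sum going from 12.98 to 14.9 TPM up to 34.1 to 45.9 TPM. All 8 listed of 20 sinusoidal endothelial markers rose, from 22.5 to 24.4 TPM up to 56.1 to 71.7 TPM. Of the listed markers, 1 of 9 for cholangiocytes fell and 4 rose, 2 of 8 for macrophages fell and 5 rose, and 4 of 7 for neutrophils fell and 3 rose. The rescaling shifted log2 fold changes by a median of -0.74, so it could remove higher calls but hardly lower ones. After it every listed hepatocyte marker passed as lower, and 4 of the 14 stellate cell and 2 of the 8 endothelial markers passed as higher. Of all listed genes 34.8% then passed as lower and 11.0% as higher. The higher calls then numbered 1 each for cholangiocytes, macrophages and neutrophils, and their lower calls stayed at 1, 2 and 4. No listed marker was at 0 in any liver. The part of these markers in the Fgfr3 difference was not tested.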

How the data were processed

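RNA was extracted from mouse liver (6 libraries) with TRIzol, and stranded mRNA libraries were prepared and sequenced by the authors. Reads were trimmed (cutadapt 2.5), aligned to GRCm38/mm10 (HISAT2 2.1.0) and counted (featureCounts 1.6.3), per the submitters' processing notes. The deposited table gives TPM per liver beside the authors' own log2 fold changes and p-value columns. Those columns were read only to establish how rows had been selected and no value of them was used. The unit TPM was inferred: with the exon lengths of GENCODE M21 (3196 of 3201 genes matched), 92.2% to 92.6% of values below 5000 reads were whole reads within 0.02, and 2916 genes were whole in every liver. The deposited TPM give 846803 to 2851210 reads on listed genes per liver, whereas total depth was not given.

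Groups were compared with limma 3.58.1 in R 4.3.3 (lmFit, eBayes with trend) on log2(TPM + 0.1) over all 3201 rows without a block, two-sided. The code was tested on simulated data. Fgfr3, the gene lists and the tests were chosen with earlier results of these data known. Named genes were Fgfr3, members of the FGF ligand, receptor, co-receptor, adaptor, feedback and ERK lists whose mean reached 1 TPM in 1 or both groups, the 5 strongest called other receptor tyrosine kinases and ligands of at least 1 TPM in each direction, listed genes within 500 kb, and the 5 nearest profiles. The libraries are biologically independent per the paper, so p-values measure the spread between animals, sample preparation included. Alternatives were pseudocounts of 1 and 0.01, a minimum mean of 1 TPM, rescaling by median ratios, no variance trend, a replicate block, limma-voom on the recovered reads, no fold limit and leaving out each liver. The ratios and the split of called genes by direction were added after seeing the data. Sequences were matched by symbol to RefSeq windows of GRCm38.p6.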

Additional observations from a re-analysis of the deposited data

How the results depend on the processing

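Fgfr3 kept its direction and its call in all 13 alternatives, with limma adjusted p between 6.3e-06 and 0.00273. Its log2 fold change was -1.09 with a pseudocount of 1, -1.41 with 0.01 and -1.40 by limma-voom on the recovered reads. Leaving out each liver in turn gave -1.53 to -1.14. Counts moved more. Of the 3201 genes 2294 passed, 1333 higher and 961 lower. This became 832 (266 higher, 566 lower) with a pseudocount of 1, 3043 with 0.01 and 1309 (522 higher) with a minimum mean of 1 TPM. After rescaling 1466 passed, split 353 higher to 1113 lower, and leaving out each liver gave 2120 to 2330. Without a fold limit 2005 were higher. The FGF signaling genes that passed went from 26 to 14 with a pseudocount of 1 and to 17 after rescaling. With a pseudocount of 0.01 Fgf11, Klb, Ncam1, Xylt1, Pik3r3, Stat5a, Epha4 and Klf4 gained a call, while Slc51b lost its own. By limma-voom on the recovered reads the same genes and Frs3 gained a call. The other receptor tyrosine kinase genes that passed went from 5 to 1 with a pseudocount of 1 and to 1 after rescaling. With 0.01 they numbered 10, where 3043 of all 3201 genes passed. They numbered 11 without the fold limit and 3 to 7 when each liver was left out, the 3 without △HSC replicate 3. With the minimum mean only Pdgfrb and Axl were tested, and these 2 passed. By limma-voom 12 passed, where Ephb3 and Ptk7 had no value. No named gene reversed its direction where it had passed. The cause of these shifts was not tested.

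Replicate numbers are shared between the groups, but same-numbered livers did not deviate together (correlations of 0.06, 0.006 and 0.03 across genes), so the numbers were not taken to pair the livers. With a replicate block Fgfr3 had a log2 fold change of -1.37 and a limma adjusted p of 0.00115, and the block changed none of the 66 calls of named genes. Depth limits genes with few reads, such as G630022F23Rik, more than Fgfr3.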
